A study of Mus musculus with 6 samples.

Results

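Scavenger and endocytic receptors were examined in nuclei of the postnatal mouse brain after injection of lysophosphatidic acid (LPA) into the ventricle, a model of post-hemorrhagic hydrocephalus. The set held 8 genes, Mrc1, Stab1, Msr1, Cd36, Scarb1, Cd163, Lyve1 and Colec12, matched by symbol among the 32285 genes of the count matrices. C57BL/6 S-56 mice received 18:1 LPA in a bovine serum albumin carrier, or the carrier alone as vehicle, at the end of the first postnatal week. Their brains, without olfactory bulbs and cerebellum, were collected at the start of the third. Nuclei that did not stain for the neuronal protein NeuN were sorted, and 3 LPA and 3 vehicle libraries were made from them, so neuronal nuclei that remained are those that passed this gate. The labels name the libraries as replicates without saying that each came from 1 animal, so p-values measure the spread between libraries.

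Scavenger receptors bind modified lipoproteins, haemoglobin, matrix fragments and dead-cell debris at the surface of a cell and carry them to lysosomes. In the brain they are known mainly from the macrophages of the meninges, perivascular spaces and choroid plexus, while resting microglia of the parenchyma carry few of them. Some members also serve vessels and connective tissue, where they clear hyaluronan or move lipids.

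Each library held 8639 to 12894 barcodes and 48852970 to 65688644 UMIs (unique molecular identifiers, each counting 1 captured RNA molecule). After filtering, 57443 of 63383 nuclei were kept. Clusters were named by markers, and each name is short for a likeness to that type (microglia for microglia-like nuclei). F13a1 macrophages are a cluster led by F13a1 and Cd163, with Mrc1 and Colec12 among its 10 leading genes. Stab1 was among those of a sub-cluster of activated microglia. The receptors and the marker genes were left out of the genes used for clustering, and no receptor served as a marker. Levels between cell types are described and not tested. The microglial markers Tmem119, Slc2a5 and Olfml3 had 1, 0 and 0 UMIs in 172 F13a1 macrophages, while P2ry12 had 66 UMIs in LPA and 70 in vehicle and Cx3cr1 57 and 38. Of the deposited barcodes, 2456 occurred in more than 1 library, but only 804 of the nuclei kept, and 17 of 1165 homeostatic microglia. By Xist and Y-linked genes, 1 LPA library and 2 vehicle libraries were male.

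Summed over all barcodes, the receptors ranged from 185 UMIs for Lyve1 to 30651 for Colec12. Mrc1 had 7153, Stab1 8949, Scarb1 12170, Cd163 723, Cd36 250 and Msr1 233. On GRCm38 with GENCODE M21 genes, Mrc1 lies at chr2:14229392-14332057 on the plus strand and holds the microRNA gene Mir511 on the same strand. Stab1 lies at chr14:31139013-31168641 on the minus strand and overlaps Nt5dc2 on the other strand. Msr1 is at chr8:39581685-39642673, Scarb1 at chr5:125277087-125341094, Lyve1 at chr7:110850607-110863239 and Cd36 at chr5:17781690-17888801, all on the minus strand. Cd163 is at chr6:124304656-124330527 on the plus strand. Intronic reads were counted along with exonic ones, so a UMI may come from any part of these spans.

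The 250 bases before the RefSeq start site (GRCm38.p6) are shown for Mrc1 and Stab1, the myeloid members that rose in microglia as a whole. Mrc1 is chr2:14229164-14229413 on the plus strand, ending just inside the GENCODE gene, and Stab1 is chr14:31168642-31168891 on the minus strand. Capitals mark GAGGAA, the core bound by the myeloid factor PU.1, read on either strand, and TGCTGA, the core of a MAF element.
Mrc1: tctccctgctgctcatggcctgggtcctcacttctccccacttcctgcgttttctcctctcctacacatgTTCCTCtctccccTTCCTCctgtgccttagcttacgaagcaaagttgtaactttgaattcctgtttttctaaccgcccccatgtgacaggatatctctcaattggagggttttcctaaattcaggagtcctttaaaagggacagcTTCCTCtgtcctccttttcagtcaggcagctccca
Stab1: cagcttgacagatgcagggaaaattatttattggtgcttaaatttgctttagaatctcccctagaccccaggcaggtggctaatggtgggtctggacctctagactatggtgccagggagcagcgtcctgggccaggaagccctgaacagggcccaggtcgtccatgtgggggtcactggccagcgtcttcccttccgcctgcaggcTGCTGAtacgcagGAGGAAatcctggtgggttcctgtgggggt
Mrc1 held the PU.1 core on the other strand with first bases at -180, -167 and -35 from the start site. Stab1 held it once on the gene's strand at -30 and the MAF core at -43, and the matches did not overlap. Of 32851 RefSeq promoter windows of this length, 23.25% held the PU.1 core and 16.08% the MAF core on either strand. The AP-1 site TGAGTCA and the E-box CACGTG, present in 4.463% and 6.021%, were not in these windows. RefSeq windows matched 4 of the 8 members, also Cd36 and Cd163.

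Mrc1 encodes the mannose receptor CD206, which takes up mannosylated glycoproteins and collagen fragments. Its levels, in UMIs per 1000000 UMIs of the cell type in that library (CPM), were highest in F13a1 macrophages, with a mean of 5120 ± 674 CPM (SD, n = 6). Activated microglia followed with 870 ± 149 CPM in the 3 LPA libraries, and the other immune cells, led by Cd74 and other antigen presentation genes, with 799 ± 189 (n = 4). The ranges of these last overlapped. Intermediate microglia, led by Ccl3 and Cd83, held 485 ± 53.2 CPM and interferon microglia 270 ± 84.2 (n = 3 each). Outside the immune cells no named type exceeded a library value of 26.6 CPM, and neurons, as a type that should lack the receptor, held 1.74 to 3.50 CPM.

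**Figure D1:**
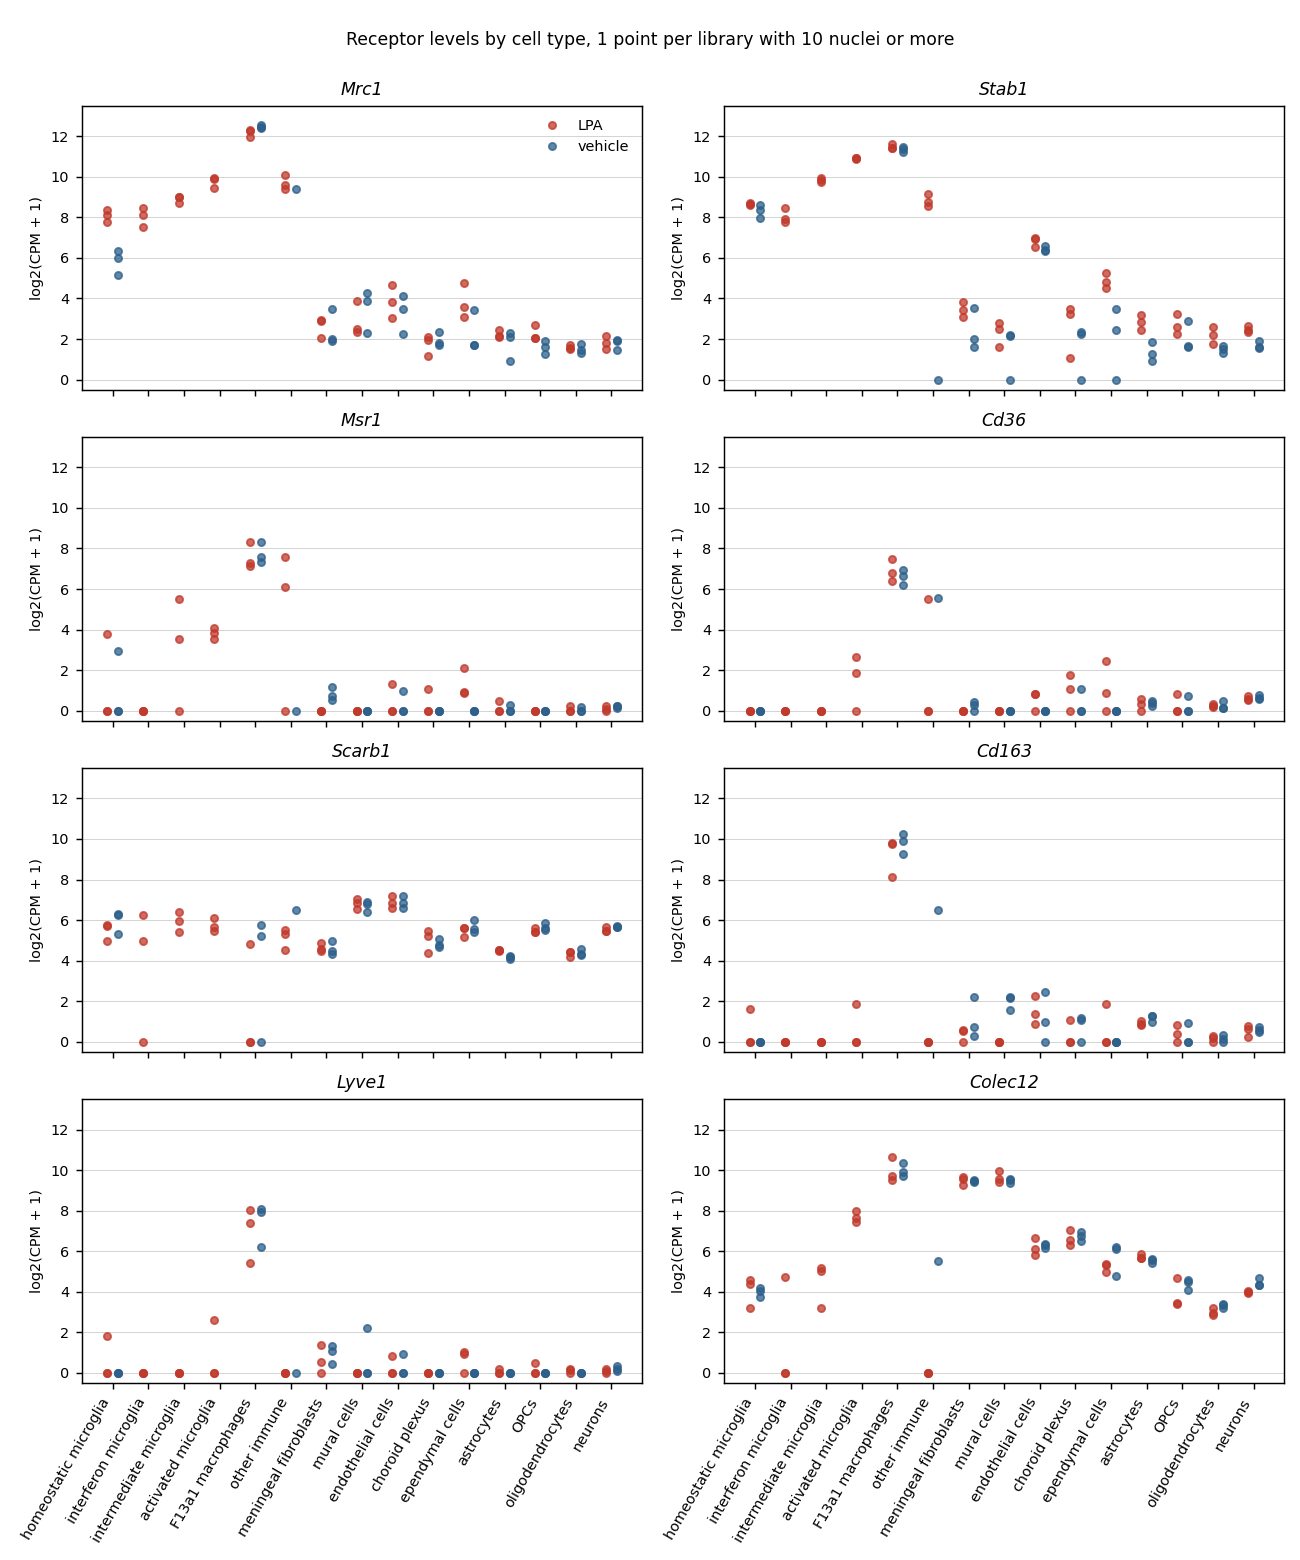
Level of each receptor by cell type, as log2(CPM + 1) on the vertical axis, with 1 point per library that held at least 10 nuclei of the type. LPA points are red and vehicle points blue. Mrc1, Msr1, Cd36, Cd163 and Lyve1 peak in F13a1 macrophages (Mrc1 5120 CPM), Stab1 also in activated microglia (1913 CPM), Scarb1 is spread over all types, and Colec12 is high in macrophages, mural cells and meningeal fibroblasts.

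In homeostatic microglia, led by genes such as Tmem119 and Siglech, Mrc1 rose after LPA. LPA libraries 1, 2 and 3 held 329.7, 219.5 and 272.9 CPM, from 128, 108 and 81 UMIs. Vehicle libraries 1, 2 and 3 held 80.5, 63.5 and 34.2 CPM, from 13, 29 and 4 UMIs. Every LPA library stood above every vehicle library. The log2 fold change was 2.09 with a standard error of 0.22, a 4.27-fold difference (edgeR quasi-likelihood test, Benjamini-Hochberg adjusted p = 7.34e-09). A call required both an adjusted p below 0.05 and a shift of 0.25 or more on the log2 scale, in either direction, and 0.243% of the 6574 genes tested here were called. Mrc1 was the only receptor called of the 3 tested, and the other 5 had too few UMIs. It was detected in 22.9% of 659 LPA nuclei (95% Wilson interval 19.9 to 26.3%) and 7.51% of 506 vehicle nuclei (5.52 to 10.1%), intervals that cover counting error only. Median depths were 1761 and 1422 UMIs. With each nucleus thinned to 1000 UMIs, which left out 27 and 26 nuclei, the shares were 16.2% and 5.18%. Neurons thinned in the same way gave 0.297% and 0.203%, against 1.60% and 0.805% unthinned at median depths of 6259 and 5188 UMIs.

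Mrc1 was higher with LPA in each of the 6 homeostatic sub-clusters, with the libraries of a group pooled. By ratio the widest gap was in sub-cluster 7, led by Siglech, with 484.3 CPM in LPA and 22.8 in vehicle, the latter from 1 UMI. Sub-cluster 1 had the lowest ratio, 221.5 against 128.6 CPM. Without sub-cluster 7 the log2 fold change was 1.74 ± 0.24 (SE, edgeR adjusted p = 1.16e-06). Macrophage RNA in these nuclei was gauged from 8 markers of F13a1 macrophages. Their summed level was 144.9 to 213.8 CPM in the LPA libraries, from 6 of the 8 genes, and 102.6 to 154.8 in vehicle, from 5 genes. F13a1 itself had 2 UMIs in each group, and Pf4 and Ccl24 had none. Dab2, an endocytic adaptor on that list, had 136 UMIs with LPA and 46 with vehicle. Leaving out every nucleus with a UMI of any of these markers gave a log2 fold change of 1.80 ± 0.26 (edgeR adjusted p = 9.94e-05). Within sexes, the male LPA library held 329.7 CPM against a mean of 57.4 in 2 vehicle libraries, and the 2 female LPA libraries averaged 246.2 against 63.5 in 1.

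**Figure D2:**
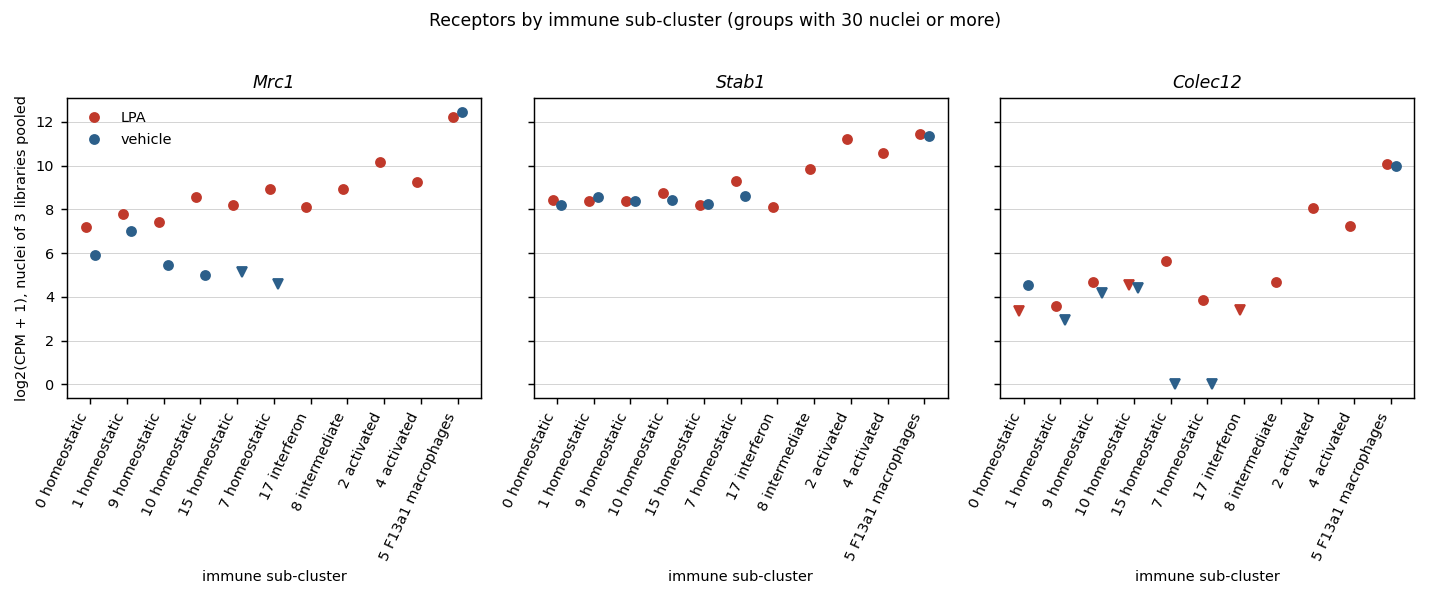
Mrc1, Stab1 and Colec12 by immune sub-cluster (horizontal axis, numbered, with the state), as log2(CPM + 1) of nuclei pooled over the 3 libraries of a group, where a group had at least 30 nuclei. Circles rest on 3 UMIs or more and triangles on fewer. LPA (red) lies above vehicle (blue) for Mrc1 in all 6 homeostatic sub-clusters, while for Stab1 the points lie close except in sub-cluster 7.

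F13a1 macrophages did not share this rise. Mrc1 held 5000, 4866 and 3986 CPM in the LPA libraries and 5393, 5550 and 5923 in vehicle, so that every LPA value was lower. The log2 fold change of -0.37 ± 0.16 was not called (SE, edgeR adjusted p = 0.92). The LPA effect in macrophages minus that in homeostatic microglia, tested as an interaction, was -2.38 ± 0.29 on the log2 scale (edgeR adjusted p = 1.05e-06). It was the only call, 0.0284% of 3525 genes. In macrophages edgeR called none of the 6 receptors tested and 0% of the 1529 genes, of which 71 had an unadjusted p under 0.05, and DESeq2 called 2 genes. There were 16 to 61 such nuclei per library, and a simulated 2-fold change was found in 39.5% of the genes changed. Nearly every macrophage carried Mrc1 and Stab1, since 65 of 67 LPA nuclei and 99 of 105 vehicle nuclei held both.

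Over all microglia, activated ones included, Mrc1 held 546.4, 436.5 and 609.5 CPM with LPA and 90.6, 63.2 and 32.0 with vehicle. The groups lay far apart, with a log2 fold change of 3.04 ± 0.20 (SE, edgeR adjusted p = 2.04e-15). Here 3 of 4 receptors tested were called, Mrc1, Stab1 and Colec12, all higher, against 9.3% of 8879 genes. Colec12 had few vehicle UMIs and passed the count filter through the LPA libraries, so its place in this count leans to the higher side. Activated microglia made up 1.35 to 2.08% of nuclei in the LPA libraries and at most 0.00851%, 1 nucleus, in vehicle. With the first clustering made finer, at a resolution of 2, the change of Mrc1 was 0.29 (edgeR adjusted p = 0.67) and was not called. The nuclei then named microglia held 207 UMIs of F13a1 and 35 of Cd163 in vehicle, against 3 and 0 before. In LPA they held 146 and 20, against 45 and 2 before, when 1326 LPA and 524 vehicle nuclei were named microglia.

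Taken over all immune cells, the direction was the opposite. Mrc1 held 920.1, 724.8 and 758.5 CPM in LPA and 1493, 1104 and 1388 in vehicle, and fell by 0.70 on the log2 scale (SE 0.12, edgeR adjusted p = 0.00032). F13a1 macrophages were 3.58 to 5.77% of the immune nuclei in LPA libraries and 15.2 to 17.7% in vehicle, where they held 85.4 to 92.7% of the immune Mrc1 UMIs. With these macrophages left out, Mrc1 was higher in LPA by 1.79 ± 0.19 (edgeR adjusted p = 4.4e-09). As a share of all nuclei the macrophages were 0.297, 0.277 and 0.186% in LPA and 0.277, 0.523 and 0.196% in vehicle, a difference of -0.079 percentage points (two-sided exact permutation test, p = 0.6). Their share of all Mrc1 UMIs was 26.5, 30.1 and 11.9% in LPA and 49.3, 58.7 and 39.3% in vehicle. These groups did not overlap, and p = 0.1 is the smallest that 20 assignments of 3 against 3 allow in this exact permutation test.

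**Figure D3:**
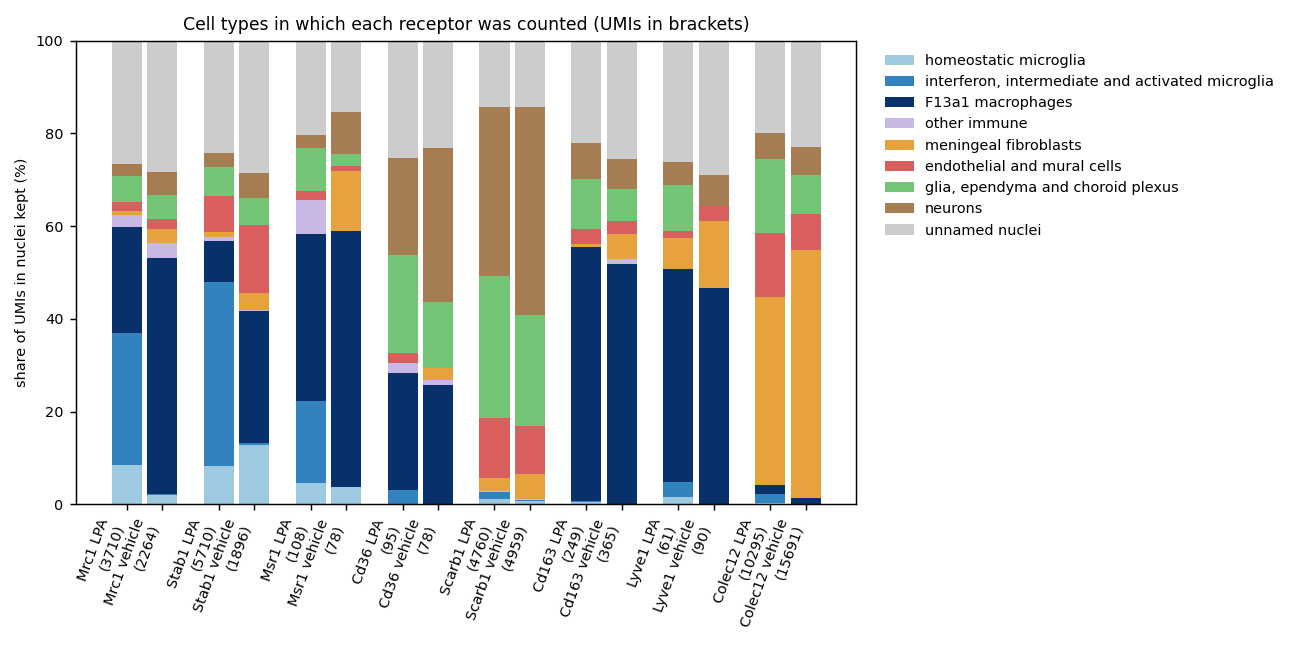
Share of each receptor's UMIs by cell type (vertical axis, percent of UMIs in nuclei kept), with 1 stacked bar for LPA and 1 for vehicle, pooled over 3 libraries, and the UMIs in brackets. The macrophage segment of Mrc1 is 50.9% in vehicle and 22.96% in LPA, where activated microglia alone hold 23.3%. Unnamed nuclei include clusters set aside as mixtures of types.

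Stab1 encodes stabilin-1, which takes up acetylated lipoprotein and the matrix protein SPARC, and serves macrophages and some sinusoidal endothelium. Its order resembled that of Mrc1 but with a smaller gap between microglia and macrophages. F13a1 macrophages held 2740 ± 237 CPM (n = 6), activated microglia 1913 ± 38.8 and intermediate microglia 924 ± 73.5 (n = 3 each), and the ranges of these were apart. Homeostatic microglia followed with 361 ± 62.5 CPM (n = 6), a range that overlapped those of other immune cells and reached no further down than 247.9. Of the activated sub-clusters, the one with Ms4a7 among its leading genes held 2345 CPM and that led by Gpnmb and Spp1 1548, both in LPA nuclei. Ms4a7 is also one of the F13a1 macrophage markers. Its sub-cluster had marker scores of 0.455 for activated microglia, 0.361 for homeostatic microglia and 0.168 for F13a1 macrophages. The F13a1 macrophages themselves scored 0.956 for the last.

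The level within homeostatic microglia did not pass the test. It was 391.5, 398.4 and 411.1 CPM with LPA and 390.2, 328.7 and 247.9 with vehicle (log2 fold change 0.27 ± 0.15, edgeR adjusted p = 0.73). F13a1 macrophages held 2730, 2731 and 3116 CPM against 2381, 2666 and 2815, overlapping ranges with a log2 fold change of 0.03 ± 0.17. Over all microglia, which add the activated states, Stab1 rose from 380.7, 330.6 and 231.8 CPM to 922.9, 1026 and 1188. That is a log2 fold change of 1.70 ± 0.15 (edgeR adjusted p = 6.25e-12). Immune cells as a whole showed a smaller rise, 0.54 ± 0.11 (edgeR adjusted p = 0.0020), and there 4 of 8 receptors were called against 6.09% of 9707 genes.

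Stab1 was also called outside the immune cells, at low levels. Astrocytes held 6.23, 8.11 and 4.47 CPM in LPA and 0.863, 2.62 and 1.43 in vehicle (1.84 ± 0.34, edgeR adjusted p = 0.0017). It was the only receptor called of 4 there, where 8.17% of 14605 genes were. In the oligodendrocyte lineage, it held 4.05, 4.72 and 3.93 CPM against 1.85, 2.86 and 1.58 (0.97 ± 0.24, adjusted p = 0.015), the only call of 4 where 11.8% of 15232 genes were called. Without LPA library 2 this call was lost at 0.88 (edgeR adjusted p = 0.096), and without vehicle library 3 at 0.80 (0.079). Ependymal cells, which line the ventricle, held 27.4, 37.8 and 22.1 CPM against 10.3, 4.46 and 0, where 0 of 518637 UMIs allows up to 5.78 CPM. The change was 2.25 ± 0.46 (edgeR adjusted p = 0.0061), the only call of 3 receptors, against 4.19% of 10810 genes. Without vehicle library 1 it was 3.70, and leaving out any other library gave 1.78 to 2.43, all called. In ependymal cells and astrocytes Stab1 passed the count filter through the LPA libraries, so its being tested leaned on its higher values there. Scrublet called 19.97% of ependymal nuclei and 1.27% of astrocytes doublets. Once nuclei called doublets by Scrublet were removed, too few UMIs of Stab1 were left in ependymal cells for a test.

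Neurons, which should lack Stab1, moved in the same direction. They held 4.02, 5.34 and 4.40 CPM in LPA and 2.07, 2.81 and 1.97 in vehicle, without overlap (1.01 ± 0.21, edgeR adjusted p = 0.22, not called). In neurons none of the 4 receptors tested was called by edgeR, and 0.0827% of 16923 genes were, while 1208 genes had an unadjusted p under 0.05 and DESeq2 called 30 genes. Immune markers, 16 genes all with UMIs, summed to 330.8 to 473.1 CPM in ependymal cells of LPA libraries and 206.3 to 354.9 in vehicle. The sums were 58.5 to 79.5 and 28.0 to 68.0 CPM in astrocytes, 65.9 to 80.4 and 44.6 to 70.5 in the oligodendrocyte lineage, and 56.4 to 75.4 and 47.4 to 75.2 in neurons. Their part in the Stab1 values was not tested.

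Endothelial cells were the one type outside the immune cells with clear Stab1. It held 90.8, 120.8 and 125.4 CPM in LPA and 96.7, 78.9 and 84.2 in vehicle, overlapping ranges (0.37 ± 0.15, edgeR adjusted p = 0.81). The immune markers summed to 240.2 to 485.9 and 189.5 to 346.8 CPM there, and their part was not tested. No receptor of 4 was called in these cells, where edgeR called 0% of 11306 genes, 685 had an unadjusted p under 0.05 and DESeq2 called 6. Summed over all nuclei, Stab1 held 42.1, 48.2 and 42.5 CPM against 13.6, 18.2 and 9.87, a log2 fold change of 1.67 ± 0.18 (edgeR adjusted p = 0.0025). Mrc1, with 32.9, 26.7 and 27.0 against 16.5, 20.3 and 13.1 CPM, rose by 0.79 ± 0.15 (adjusted p = 0.019), a call lost without LPA library 1 (0.70, edgeR adjusted p = 0.077). In all nuclei 3 of 8 receptors were called, the third being Colec12, against 5.62% of 20207 genes.

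**Figure D4:**
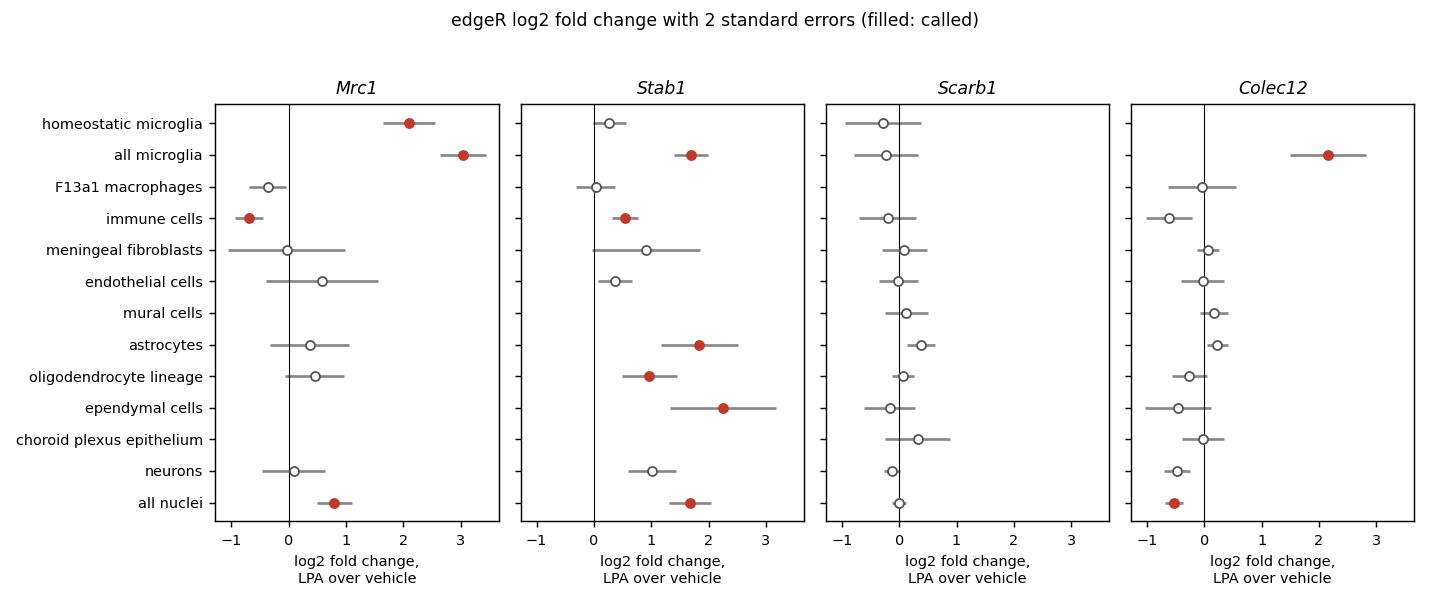
Log2 fold change of LPA over vehicle by cell type for the 4 receptors tested most widely, with bars of 2 standard errors, and filled points for calls. Mrc1 points right in microglia (3.04 over all microglia) and left in immune cells as a whole (-0.70), Stab1 points right in most types, Scarb1 has no filled point, and Colec12 is called higher in all microglia (2.16) and lower in all nuclei (-0.53).

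Cd163, the receptor for haemoglobin bound to haptoglobin, was the member most restricted to macrophages. They held 849.5, 901.0 and 280.7 CPM in LPA and 613.3, 952.3 and 1224 in vehicle, with LPA library 3 lowest on 10 UMIs. These ranges overlapped, and the change of -0.45 ± 0.34 was not called (edgeR adjusted p = 0.92). All 1850 microglia together had 2 UMIs of Cd163, both in LPA library 2. Of the immune UMIs, 96.2 to 100% were in F13a1 macrophages in every library. Of the 614 UMIs in all nuclei kept, 325 were in these macrophages, 148 in unnamed nuclei, 43 in neurons and 35 in astrocytes. In immune cells as a whole, Cd163 held 69.2, 58.5 and 11.2 CPM against 145.1, 177.6 and 276.6 and fell by 2.01 on the log2 scale (SE 0.30, edgeR adjusted p = 5.67e-05), beside the macrophages' lower share of these nuclei. DESeq2 gave an adjusted p of 0.087.

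Lyve1, a hyaluronan receptor of lymphatic endothelium and of perivascular macrophages, followed the same outline. It held 41.8, 263.4 and 168.4 CPM in LPA macrophages and 72.2, 244.9 and 269.2 in vehicle, from 3 to 27 UMIs (-0.43 ± 0.54, edgeR adjusted p = 0.97). In immune cells it fell by 1.92 (SE 0.43, edgeR adjusted p = 0.0046), from 17.1, 44.8 and 58.5 to 4.54, 18.3 and 6.75 CPM, a call lost without vehicle library 2 (-1.72, edgeR adjusted p = 0.18). Without LPA library 2 the change was -2.79, and leaving out each library gave -2.79 to -1.60. Endothelial cells had only 2 UMIs of Lyve1, where the lymphatic marker Ccl21a had none, Prox1 had 131 in LPA and 139 in vehicle, and Flt4 222 and 148. Of the other lymphatic markers Reln had 138 and 375 UMIs, Mmrn1 9 and 18, and Pdpn 21 and 17. Of the 67 LPA macrophages 21 held Lyve1 and 12 both Lyve1 and Cd163, and of 105 vehicle macrophages 26 and 17 did.

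Msr1 and Cd36 take up modified lipoprotein, and Cd36 also fatty acids. Msr1 held 153.2, 318.8 and 140.4 CPM in LPA macrophages and 162.3, 190.5 and 318.2 in vehicle (-0.08 ± 0.39, edgeR adjusted p = 0.98). In activated microglia it held 10.6 to 16.01 CPM, from 4 or 5 UMIs per library. Homeostatic microglia had 5 UMIs with LPA and 3 with vehicle, each from 1 library. Cd36 held 84.2 to 180.2 CPM in LPA macrophages and 72.2 to 122.4 in vehicle, from 3 to 13 UMIs, too few for the test. No UMI of Cd36 was seen in 1165 homeostatic microglia, which allows a level of up to 2.55 CPM in LPA. In immune cells neither was called (Msr1 -0.89 ± 0.31, edgeR adjusted p = 0.099, and Cd36 -1.03 ± 0.46, 0.23).

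Scarb1, the receptor for high-density lipoprotein, had another distribution. Endothelial cells held 119 ± 22.4 CPM and mural cells 107.5 ± 16.5 (n = 6 each), with overlapping ranges. Microglial states held 35.5 to 62.8 CPM on average, lowest in interferon microglia on 7 UMIs, with overlapping ranges, and F13a1 macrophages only 9 UMIs in all. Neurons contained 36.5% of its UMIs in LPA and 44.8% in vehicle at 42.4 to 51.2 CPM. Of the cell types and sums tested it passed the count filter in all but the macrophages and was called in none. In endothelial cells the difference lay between -0.36 and 0.32 on the log2 scale, taking 2 standard errors either way. Astrocytes came closest, with 22.4, 21.8 and 21.3 CPM in LPA against 16.1, 17.5 and 16.9 in vehicle (0.38 ± 0.12, edgeR adjusted p = 0.055).

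Colec12 encodes a membrane collectin with a scavenger domain, which binds sugars and oxidised lipoprotein. It was the member of connective tissue and vessel walls. F13a1 macrophages held 1046 ± 331 CPM, mural cells 766 ± 121 and meningeal fibroblasts 712 ± 67.1 (n = 6 each), with overlapping ranges. Meningeal fibroblasts held 38.2, 45.0 and 37.6% of its UMIs in LPA libraries and 52.3, 52.6 and 55.2% in vehicle. Their own level was 816.3, 741.6 and 618.6 CPM against 692.8, 674.5 and 728.8, an overlap (0.07 ± 0.09, edgeR adjusted p = 0.89). They were 4.73, 6.19 and 5.32% of nuclei in LPA and 10.9, 12.03 and 12.3% in vehicle, without overlap, at the smallest exact permutation p of 0.1. Over all nuclei, Colec12 fell by 0.53 on the log2 scale (SE 0.08, edgeR adjusted p = 0.0087), from 106.0, 118.1 and 122.5 to 84.2, 84.6 and 71.0 CPM.

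In all microglia Colec12 rose from 24.2, 14.7 and 32.0 to 99.3, 82.6 and 87.1 CPM (2.16 ± 0.33, edgeR adjusted p = 4.79e-06). The vehicle values rest on 4, 7 and 4 UMIs, and the gene passed the count filter through the LPA libraries. Activated microglia held 256.1, 197.9 and 172.3 CPM in LPA libraries, above the 8.13 to 23.2 CPM of homeostatic microglia in the same libraries. At a clustering resolution of 2 the change over all microglia was 0.06 (edgeR adjusted p = 0.94). In immune cells Colec12 was not called (-0.61 ± 0.20, edgeR adjusted p = 0.072), and without F13a1 macrophages it was higher in LPA by 1.78 (adjusted p = 5.88e-05).

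Elsewhere no receptor was called. In meningeal fibroblasts 0 of 4 passed edgeR against 0.603% of 13442 genes, 1347 of which had an unadjusted p under 0.05 and 94 of which DESeq2 called. Without vehicle library 2, Stab1 was called there (2.01, edgeR adjusted p = 0.042). In mural cells it was 0 of 2 against 0.116% of 7741 genes, with 573 at an unadjusted p under 0.05 and 1 called by DESeq2. In choroid plexus epithelium it was 0 of 2 against 0.0397% of 10070, with 613 and 5. The LPA effect in endothelial cells against that in meningeal fibroblasts was called by edgeR for 0 of 4 receptors and for 0.00771% of 12967 genes, 784 of which had an unadjusted p under 0.05. DESeq2 was not run on this interaction.

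Genes with the most similar pattern were sought among 20516 genes by the Pearson correlation of log2(CPM + 1) over 15 named cell types, on means of libraries with at least 10 nuclei. These correlations describe profiles that share libraries and depth. Mrc1 was closest to Ms4a6d (r = 0.988), Ms4a6b (0.986) and Fcgr2b (0.980), and Stab1 to Gpr160 (0.981), Grb2 and Slc46a3 (both 0.968). Msr1 was closest to F630028O10Rik (0.989), Ccl6 (0.966) and C5ar1 (0.963). Cd36 resembled F13a1 (0.963), Gm49144 (0.955) and Retnla (0.953), and Cd163 resembled Gm30489 (0.953), Gm49144 (0.952) and Cd36 (0.946). Lyve1 was nearest to C6 (0.983), Clec10a (0.982) and Gm29554 (0.978). The values were lower for Colec12, with Gm15839 (0.868), C1qtnf1 (0.861) and Ifitm1 (0.858), and for Scarb1, with Nes (0.785), Tmem204 (0.784) and Sh2d3c (0.776).

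Genes acting beside the receptors were counted by list. Of 20 endocytosis adaptors, all tested in microglia as a whole, 2 rose and 1 fell, beside 9.3% of all genes called there, with a median log2 fold change of 0.27 against -0.01 over all genes. Dab2, a clathrin adaptor for lipoprotein receptors, rose from 67.04 ± 12.6 to 320.8 ± 73.5 CPM (n = 3 each, 2.36 ± 0.22, edgeR adjusted p = 3.29e-11), but by 0.51 with an adjusted p of 0.24 at a clustering resolution of 2. Gga2 rose by 1.41 (adjusted p = 0.0032, and 0.15 without vehicle library 2). Picalm fell by 0.39 (edgeR adjusted p = 0.043), a call lost under 9 alternatives. In homeostatic microglia none of 16 tested was called, beside 0.243% of all genes.

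Of 21 genes for lipid uptake and storage, 6 of 14 tested rose in all microglia and none fell, beside 9.3% of all genes called (488 higher and 338 lower of 8879), with a median of 0.61 against -0.01. The count leans to the higher side, since Pparg and Plin2, with few vehicle UMIs, passed the count filter through the LPA libraries. Lpl and Fabp5, in this list, also served as markers of activated microglia, a state nearly absent from vehicle. Abca1, which exports cholesterol, rose from 403.7 ± 43.7 to 1036 ± 97.8 CPM (n = 3 each, 1.35 ± 0.13, edgeR adjusted p = 2.55e-10). Soat1, which esterifies cholesterol, rose by 1.56 (1.16e-07), and Plin2, which coats lipid droplets, by 2.97 (9.36e-08). Pparg, a nuclear receptor for fatty acids, held 42.3 ± 3.39 CPM against 2.66 ± 4.62 (n = 3 each, edgeR adjusted p = 2.76e-06). Abca1 was the only one of 10 called in homeostatic microglia (0.66 ± 0.14, edgeR adjusted p = 0.012), and lost its call without LPA library 1 or 3 or vehicle library 2 or 3, with adjusted p values up to 0.18. In the oligodendrocyte lineage, whose mix of OPCs and oligodendrocytes differed between the groups, 2 of 20 rose and 5 fell, beside 11.8% of all genes called. Among those that fell were Npc2 and Lipa, of lysosomal cholesterol release, by 0.43 and 0.40 (edgeR adjusted p = 0.00069 and 0.0025).

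Haem handling was read from a list of 10 genes beside Cd163. In immune cells 2 of 8 tested rose, beside 6.09% of all genes called. Hmox1, which opens the haem ring, held 28.6 ± 12.1 CPM against 4.30 ± 1.00 (n = 3 each, edgeR adjusted p = 0.0022, and 0.096 without vehicle library 2). It passed the count filter through the LPA libraries. Blvrb, a biliverdin reductase, rose by 0.94 (edgeR adjusted p = 0.029), a call that leaving out any library but vehicle 2 ended, and in all microglia by 1.79 (0.00046), the only call of 6 there. Fth1, a ferritin subunit, fell by 0.47 in astrocytes, by 0.67 in the oligodendrocyte lineage and by 0.86 in ependymal cells (edgeR adjusted p = 0.00054, 3.82e-05 and 0.0037). The last call was lost without vehicle library 1 (edgeR adjusted p = 0.057).

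Of 18 lectins and mannose receptor relatives, 2 of 7 tested in immune cells were called, both lower, beside 6.09% of all genes called (213 lower of 9707). They were Clec10a (-2.38 ± 0.35, edgeR adjusted p = 3.6e-05) and Mgl2 (-3.06 ± 0.58, 0.00089), lectins of macrophages and dendritic cells, again beside the lower share of F13a1 macrophages. Of 20 other scavenger receptors, 1 of 4 tested in all microglia was called, beside 9.3% of all genes. It was Cd14, which fell by 1.64 (edgeR adjusted p = 0.0018, and 0.056 without vehicle library 2). Cd44, a hyaluronan receptor in this list and in that of 11 hyaluronan genes, rose in astrocytes from 9.57 ± 1.63 to 35.3 ± 2.96 CPM (n = 3 each, 1.85 ± 0.14, edgeR adjusted p = 1.12e-07). Cd68, a lysosomal glycoprotein of phagocytes, rose there from 1.37 ± 0.316 to 3.94 ± 0.109 CPM (n = 3 each, edgeR adjusted p = 0.0036). In the oligodendrocyte lineage Lrp1, a large endocytic receptor, and Megf11 rose by 0.81 and 0.79 (edgeR adjusted p = 0.00019 and 0.00016). These changes stand beside the higher share of OPCs with LPA, whose part was not tested. Cd44 also rose in ependymal cells by 1.54 (edgeR adjusted p = 0.018), where each of 4 leave-outs ended the call. In all, 1 of 6 hyaluronan genes tested was called in astrocytes and 3 of 4 in ependymal cells, beside 8.17% and 4.19% of all genes. In ependymal cells Cemip and Cemip2, which degrade hyaluronan, fell by 1.31 and 0.72 (edgeR adjusted p = 0.046 and 0.036, both lost under several alternatives). In the oligodendrocyte lineage Vcan, a proteoglycan that binds hyaluronan and an OPC marker here, rose by 0.66. Tnfaip6 fell there by 1.08 (edgeR adjusted p = 1.24e-05 for Vcan and 3.11e-05 for Tnfaip6), again beside the differing mix. In F13a1 macrophages none of the 15 listed genes tested was called by edgeR.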

How the data were processed

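Single-nucleus RNA-seq of 6 libraries (3 LPA, 3 vehicle) was analysed from the deposited matrices. The authors made these raw UMI counts with Cell Ranger 4.0.0 against an mm10 pre-mRNA reference, so intronic reads were counted, and deposited filtered barcodes. Nuclei with under 300 genes, over 1% mitochondrial UMIs or outlying UMI totals were removed. The rest were clustered (scanpy 1.11.5, Leiden resolution 1, 3000 variable genes, 40 components) and named by marker scores. Immune nuclei were sub-clustered at resolution 2, and mixed clusters were left unnamed. Scrublet called 12.3 to 15.4% of nuclei per library as doublets, which were kept except in an alternative. UMIs were summed per library and cell type and tested with edgeR 4.0.16 (quasi-likelihood, TMM, filterByExpr), p-values adjusted over all genes tested in that type. Alternatives included DESeq2 1.42.0, other filters and resolutions, a replicate block and leaving out each library. The named genes were the 8 receptors, the 3 genes most like each, and up to 4 called genes per list and cell type. Members and lists were chosen with earlier results of these data known. On simulated data edgeR recovered 59.5% of 200 genes changed 2-fold in homeostatic microglia. The tests of the study's methods on single nuclei were not used, since nuclei are not replicates.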

Additional observations from a re-analysis of the deposited data

Results flagged for a closer look

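Mrc1 differed between cell types in its response. The LPA effect in F13a1 macrophages minus that in homeostatic microglia was -2.38 on the log2 scale (SE 0.29, edgeR adjusted p = 1.05e-06). The alternatives gave -3.00 to -2.22, all called.

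Stab1 was also measured in the barcodes that the filters left out, 753 to 1228 per library. These held 27.2, 31.3 and 23.9 CPM in the LPA libraries and 16.5, 16.97 and 9.07 in vehicle, so the lowest LPA library lay above the highest vehicle library. No test was made on them.

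Groups of 3 libraries are too small for a rule on outlying samples.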

How the results depend on the processing

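Of 918 comparisons of a receptor with an alternative, 897 kept their call, 7 lost it, 12 gained it and 2 reversed, and 64 values that were not called changed sign. Reversed were Mrc1 (1.79) and Colec12 (1.78) in immune cells without F13a1 macrophages. Sub-clustering immune nuclei at resolution 1, chosen after seeing the data, gave 2 calls in homeostatic microglia, with Stab1 at 0.66 (edgeR adjusted p = 0.0041), and 2 in the macrophage interaction. It also turned the difference in macrophage share to 0.064 percentage points, and leaving out 1 library gave -0.147 to 0.0167. Without a mitochondrial filter, 1 receptor was called in meningeal fibroblasts (Stab1, 2.36), 2 in astrocytes (also Scarb1, 0.40) and 1 in the endothelial interaction (Stab1, -2.05). With no low count filter 2 were called in ependymal cells and 1 in neurons (Stab1, 1.01), and without Scrublet doublets 0 in ependymal cells, where Stab1 was not tested. Leaving out 1 library gave 0 to 1 calls in meningeal fibroblasts and in the oligodendrocyte lineage and 1 to 2 in ependymal cells, the 2 without vehicle library 1. Mrc1 and Colec12 in all microglia lost their calls at resolution 2. Colec12 in immune cells was called at resolution 2, with no low count filter, with the replicate block (-0.69) and without LPA library 1. The cause of these changes was not tested.

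Genes called ranged over the alternatives from 7 (DESeq2) to 106 (sub-cluster resolution 1) in homeostatic microglia against 16, from 448 to 896 in all microglia against 826, from 0 to 7 in F13a1 macrophages against 0 and from 320 to 739 in immune cells against 591. They ranged from 15 to 829 in meningeal fibroblasts (81), 0 to 70 in endothelial cells (0), 0 to 47 in mural cells (9), 782 to 1451 in astrocytes (1193), 1041 to 2186 in the oligodendrocyte lineage (1795), 183 to 694 in ependymal cells (453), 0 to 76 in choroid plexus epithelium (4), 3 to 47 in neurons (14) and 484 to 1506 in all nuclei (1136). The interactions had 1 to 29 (macrophages, 1) and 0 to 472 (endothelial, 1). With the replicate block, homeostatic microglia had 27 and mural cells 27. Replicate numbers did not pair the libraries: same-numbered deviations correlated at -0.13 to 0.24, with all over 0.1 in 0 of 13 cell types and sums, and every LPA library closest to its own number in endothelial and ependymal cells. With the replicate block the receptors called stayed at 1 in homeostatic microglia and 3 in all microglia and were 5 in immune cells. The block changed no other receptor call. DESeq2 gave no adjusted p for Mrc1 in homeostatic microglia (2.12, unadjusted p = 3.24e-11) or for Stab1 in the oligodendrocyte lineage (0.98, 0.00295) and ependymal cells (2.36, 0.000129). The interactions were not run with DESeq2 or the block. Cd36, Msr1, Lyve1 and Cd163 in microglia and Scarb1 in macrophages had too few UMIs for a test, and whether depth or low expression accounts for this was not tested. Of 764 comparisons of listed genes, 673 kept their call and 91 lost it.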
